A study of Mus musculus with 8 samples.

Results

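RNA polymerase II contacts were examined over 7 mouse genes of cholesterol synthesis and its control: Hmgcs1, Idi1 and Sqle, which encode enzymes, and Srebf2, Scap, Insig1 and Insig2, which encode the sterol-sensing machinery that switches those enzymes on and off. They were chosen by name, and they are 7 of 21887 protein-coding genes on the nuclear chromosomes of the gene table used. A paired-end tag (PET) is a pair of reads from the ends of 2 DNA fragments that were ligated together; 925 of 2751289 nuclear PETs had an end over 1 of the 7 genes or the 2.5 kb on either side. Genes of LDL uptake are not analysed here.

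The data are ChIA-PET (chromatin interaction analysis by paired-end tags) of mouse liver, with the antibody 8WG16 against RNA polymerase II. All libraries came from wild type C57BL/6 mice of 3 to 6 months under a light-dark cycle with free access to food, taken at zeitgeber time (ZT) 6, the middle of the light phase, or ZT18, the middle of the dark phase. Chromatin of 3 to 7 livers was combined for each immunoprecipitation. Experiment 1 (JM08) has 2 libraries at each time, crosslinked with formaldehyde and 1.5 mM EGS, a longer protein crosslinker; experiment 2 (JM11) has 1 library at each time, crosslinked with formaldehyde alone; experiment 3 (JM12) has 1 library at each time, crosslinked as experiment 1. The table names the experiment of each PET and not its library or time, so day and night are not compared, each experiment is 1 pool, and no p-value is given.

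As background, cholesterol is built in the cytosol and endoplasmic reticulum from acetyl-CoA through mevalonate, squalene and lanosterol, and the liver is a main site of it. SCAP escorts the membrane-bound transcription factor SREBP-2, encoded by Srebf2, from the endoplasmic reticulum to the Golgi, where proteases free the part that enters the nucleus and binds sterol regulatory elements. When sterols are plentiful, the INSIG proteins hold SCAP in the endoplasmic reticulum, and Insig1 is itself a target of SREBP, which makes a feedback loop.

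The 250 bases before the annotated start are shown for 5 genes, because PET ends of these genes were densest near a start. They are from RefSeq for GRCm38.p6, the same assembly as the mm10 build named in the submitters' processing notes, and are printed 5′ to 3′ on the strand of the gene. The windows are chr5:28071162-28071411 (plus strand) for Insig1, chr13:119690101-119690350 (plus) for Hmgcs1, chr13:8885356-8885605 (plus) for Idi1, chr15:82147019-82147268 (plus) for Srebf2, and chr1:121328025-121328274 (minus) for an inner start of Insig2. Capitals mark matches to a sterol regulatory element, an E-box, a CCAAT box (bound by NF-Y), a GC box or a TATA box, whose letters are given with their counts after the sequences. Both strands were searched, so a match on the opposite strand appears as its reverse complement, and no match overlaps another.

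Insig1: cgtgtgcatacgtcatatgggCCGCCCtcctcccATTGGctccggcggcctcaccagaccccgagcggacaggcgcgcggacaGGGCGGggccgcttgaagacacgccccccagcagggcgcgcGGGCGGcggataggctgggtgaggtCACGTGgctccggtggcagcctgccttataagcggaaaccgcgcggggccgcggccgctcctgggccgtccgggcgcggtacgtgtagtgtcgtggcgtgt

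Hmgcs1: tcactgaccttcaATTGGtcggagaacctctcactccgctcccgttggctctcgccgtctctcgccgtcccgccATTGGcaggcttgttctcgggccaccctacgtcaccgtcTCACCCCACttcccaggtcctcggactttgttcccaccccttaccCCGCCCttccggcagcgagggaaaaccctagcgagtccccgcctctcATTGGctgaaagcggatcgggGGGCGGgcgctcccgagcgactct

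Idi1: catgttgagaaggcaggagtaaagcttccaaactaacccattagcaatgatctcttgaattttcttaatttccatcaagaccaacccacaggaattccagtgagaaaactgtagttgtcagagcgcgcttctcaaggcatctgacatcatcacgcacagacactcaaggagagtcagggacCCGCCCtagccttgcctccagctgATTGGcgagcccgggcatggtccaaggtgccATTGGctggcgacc

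Srebf2: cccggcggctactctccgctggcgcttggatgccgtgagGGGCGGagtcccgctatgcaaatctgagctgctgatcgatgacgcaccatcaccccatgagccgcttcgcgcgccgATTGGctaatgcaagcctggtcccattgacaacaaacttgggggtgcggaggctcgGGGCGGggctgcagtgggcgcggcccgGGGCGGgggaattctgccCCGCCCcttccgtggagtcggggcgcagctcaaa

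Insig2: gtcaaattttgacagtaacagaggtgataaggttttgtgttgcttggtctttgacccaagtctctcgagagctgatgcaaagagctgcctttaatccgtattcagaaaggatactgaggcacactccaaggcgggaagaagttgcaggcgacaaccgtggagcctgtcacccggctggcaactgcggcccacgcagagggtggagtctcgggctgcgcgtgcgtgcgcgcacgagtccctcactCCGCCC

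Hmgcs1 carried the only match to the sterol regulatory element among the 6 genes of the set in the promoter table, TCACCCCAC from 137 to 129 bases before its start. The motif searched, TCACNCCAC, was found in 0.983% of 17492 protein-coding promoters of this length. Insig1 had an E-box from 101 to 96 bases before its start, and Scap had one before its second annotated start, from 40 to 35 bases before it. This motif, CACGTG, was present in 6.65% of promoters. The CCAAT letters were found before a start of 5 of the 6 genes, against 36.5% of promoters. In Insig2 they lay only before its outermost annotated start, not before the inner start shown. A GC box, searched as GGGCGG, lay before a start of all 6, against 42.7% of promoters. A TATA box, searched as TATAAA, was found in Scap alone of the 6, against 12.4%. Genes with several annotated starts had more windows in which to match, whereas the shares over all promoters use only the outermost start of each gene. At their outermost starts Scap and Insig2 had no GC box, and Scap had no E-box. The window of Insig1 was 72.8% G and C, against 64.8% in Hmgcs1, 67.6% in Srebf2, 51.2% in Idi1 and a median of 55.2% over all promoters. The windows of Insig2 were at 47.2%, 56.8% (the inner start shown) and 69.6%, and those of Scap at 55.2% and 58.8%. These are matches of letters, not measured binding. Sqle is absent from the promoter table.

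The experiments differed in depth, with 474466 nuclear PETs in experiment 1, 1438852 in experiment 2 and 837971 in experiment 3, or 0.349, 1.06 and 0.616 PET ends per kb on average. Levels are therefore given as relative density, the PET ends per kb over a gene and 2.5 kb on either side divided by that mean. A value of 1 is the mean of the nuclear genome. Gene length still enters, because ends of most of these genes were densest near the start and a longer body tends to lower the value. In experiment 1, Srebf2 had 15.5 within 2.5 kb of its start, against 10.3 in Hmgcs1 and 10.9 in Idi1. Over the whole window it was nevertheless lower than either. Of 8 hepatocyte markers, 7 had a relative density of at least 2 in all 3 experiments, and their median was 63.5, 8.35 and 11.5 in experiments 1, 2 and 3. None of 6 Kupffer cell and leukocyte, 4 endothelial, 4 stellate cell and 6 non-liver markers did, and 1 of 3 cholangiocyte markers did (Sox9). In liver tissue, a polymerase signal in fewer cells and less of it per cell cannot be told apart.

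Insig1 stood far above the other 6 genes, and it was the only one at or above a relative density of 2 in all 3 experiments. Across protein-coding genes 5.32% reached 2 in all 3. Within experiment 1 it was 6 of the 7 genes (all but Scap), against 27.7% of protein-coding genes, within experiment 2 it was Insig1 only, against 6.52%, and within experiment 3 it was 5 (all but Idi1 and Scap), against 25.4%. Without PETs within 8 kb these counts fell to 4 in experiment 1, where Hmgcs1 and Srebf2 dropped below 2, and to 3 in experiment 3; relative to the surrounding 1 Mb they were 5, 2 and 3, and relative to the median protein-coding gene 5, 1 and 3. With the first linker alone the count in experiment 2 was 3. The median of the 7 genes was 3.38, 1.28 and 2.39 in experiments 1, 2 and 3, beside medians of 1.22, 1.20 and 1.42 over protein-coding genes. In experiment 2 the median gene of the set was thus close to the median protein-coding gene.

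**Figure D1:**
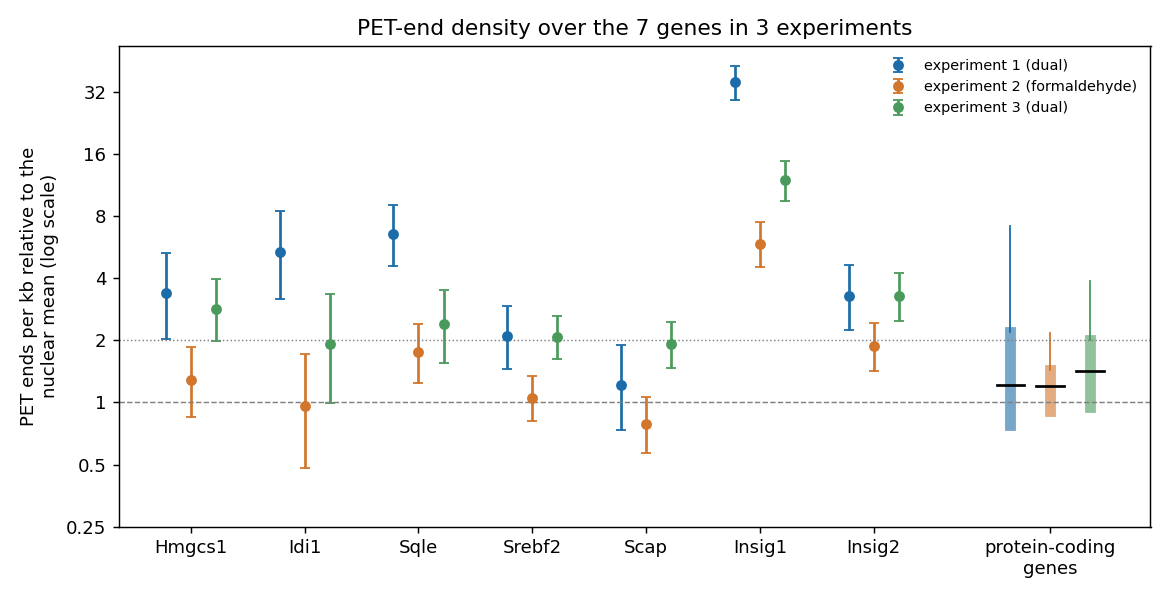
Relative density of PET ends (ends per kb over the gene and 2.5 kb on either side, divided by the nuclear mean; log scale) for the 7 genes in each experiment, with exact 95% Poisson intervals for counting error; at the right, the bar spans the 25th to 75th percentile of protein-coding genes, the black line is their median and the thin line reaches the 95th percentile. Insig1 lies above the other 6 genes in each experiment, and the other genes lie between 0.785 and 6.53.

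Among the enzymes, Hmgcs1 (chr13:119690351-119708260), which makes HMG-CoA for the mevalonate pathway, had 27, 31 and 40 PET ends in experiments 1, 2 and 3. Its relative density was 3.38 (exact 95% Poisson interval 2.04 to 5.28), 1.28 (0.851 to 1.85) and 2.84 (1.98 to 3.94) in the same order; Poisson intervals, here and below, count each PET once and cover counting error only. It was thus higher in both dual-crosslinked pools than in the formaldehyde pool, with intervals that do not overlap. This did not hold throughout: leaving out PETs within 8 kb gave 1.46 in experiment 1 beside 1.10 in experiment 2. In experiment 2 the value rose to 2.34 with the first linker alone and to 2.04 relative to the surrounding 1 Mb.

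Idi1 (chr13:8885606-8892396), the isomerase that interconverts the small isoprenoid units of the pathway, had 22, 12 and 14 ends. Its relative density was 5.35 (3.17 to 8.46), 0.963 (0.481 to 1.72) and 1.93 (0.997 to 3.37). Experiment 1 was the high one, experiment 2 lay at the nuclear mean, and the intervals of experiments 2 and 3 overlap. With the first linker alone, experiments 2 and 3 changed places (1.75 and 1.16), on 5 and 4 ends.

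Sqle (chr15:59315092-59331193), squalene epoxidase, which adds oxygen to squalene, had 48, 39 and 31 ends. Its relative density was 6.53 (4.57 to 9.03), 1.75 (1.24 to 2.40) and 2.39 (1.56 to 3.50). It was the second highest of the 7 genes in experiment 1, and experiments 2 and 3 overlap. Relative to the surrounding 1 Mb the values were 4.15, 1.48 and 1.25, so that experiment 3 was no longer above experiment 2, and without PETs within 8 kb experiment 1 was at 4.21.

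Of the regulators, Srebf2 (chr15:82147269-82205379) had 46, 70 and 81 ends over a longer span. Its relative density was 2.09 (1.45 to 2.92), 1.05 (0.810 to 1.34) and 2.09 (1.62 to 2.64). On this scale the dual-crosslinked pools gave the same level and the formaldehyde pool a lower one. Relative to the surrounding 1 Mb, however, the values were 0.932, 1.03 and 1.28, so that experiment 1 was no longer above experiment 2, and without PETs within 8 kb they were 1.29, 0.959 and 1.72.

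Scap (chr9:110333288-110384949) had 24, 47 and 67 ends, and a relative density of 1.22 (0.732 to 1.90), 0.785 (0.568 to 1.06) and 1.92 (1.48 to 2.46). It was the lowest of the 7 genes in each experiment, and, unlike the others, its value in experiment 3 lay above that in experiment 1, with overlapping intervals. In experiment 3 it was nearly equal to Idi1 (1.93). There Idi1 was lower than Scap with the first linker alone (1.16 and 2.47) and without PETs within 8 kb (1.62 and 1.98). With the second linker alone Scap was the lower of the pair (1.42, against 2.63 for Idi1).

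Insig2 (chr1:121304353-121332662), the second INSIG gene, had 38, 66 and 67 ends. Its relative density was 3.27 (2.24 to 4.62), 1.87 (1.42 to 2.42) and 3.27 (2.48 to 4.22). It was the second highest of the set in experiments 2 and 3.

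Insig1 (chr5:28071412-28078662) had 152, 76 and 90 ends in a gene of 7251 bp. Its relative density was 35.6 (29.4 to 42.7), 5.87 (4.54 to 7.47) and 11.9 (9.46 to 14.9), which placed it at percentile 99.8, 99.7 and 99.8 of protein-coding genes. The 3 pools do not overlap. In the order of levels, Insig1 was separated from the next gene in every experiment, whereas each other neighbouring pair in that order had overlapping intervals. Leaving out PETs whose ends lie within 8 kb of each other lowered the value in experiment 1 to 23.3.

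The 2 protein-coding genes nearest to Insig1 in relative density over the 3 experiments, out of 8065 with at least 100 ends, were Hhex (34.5, 6.17 and 12.2) and Xbp1 (38.2, 5.30 and 12.2). For Hmgcs1 they were Tmem189 and C1qtnf3, for Idi1 Itih2 and Slco1b2, and for Sqle Pcid2 and Mbl1. For Srebf2 they were Ndst1 and G3bp1, for Scap Lrp5 and Cnnm4, and for Insig2 Pgrmc2 and Dennd6b. Likeness is the Euclidean distance of log2 values over 3 pools, from 0.04 for Scap and Lrp5 to 0.21 for Idi1 and Slco1b2.

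The genes differed in how far the experiments stood apart. Insig1 was 6.07-fold higher in experiment 1 than in experiment 2 (exact binomial 95% interval 4.44 to 8.34) and Idi1 was 5.56-fold higher (2.49 to 13.0). Sqle was 3.73-fold higher (2.30 to 6.05) and Hmgcs1 2.64-fold (1.39 to 4.90). Srebf2 was 1.99-fold (1.28 to 3.06), Insig2 1.75-fold (1.10 to 2.73) and Scap 1.55-fold (0.852 to 2.72) higher, of which the last interval includes 1. At least 2-fold differences were thus found for 4 of the 7 genes, against 26.6% of protein-coding genes with at least 20 PETs in the pair, whose median ratio was 1.21.

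Between experiment 3 and experiment 2, 4 genes were at least 2-fold higher in experiment 3, against 15.2% of protein-coding genes: Scap at 2.45-fold (1.64 to 3.70), Hmgcs1 at 2.22-fold (1.31 to 3.78), Insig1 at 2.03-fold (1.45 to 2.86) and Idi1 at 2.00-fold (0.809 to 5.01). The values lie close to the threshold, and none of the 7 genes reached 2-fold when density was taken relative to the surrounding 1 Mb. Experiments 1 and 3, crosslinked alike, also differed: Insig1 was 2.98-fold (2.22 to 4.02), Idi1 2.78-fold (1.27 to 6.32) and Sqle 2.74-fold (1.61 to 4.72) higher in experiment 1, against 10.9% of protein-coding genes at 2-fold or more. Hmgcs1, Srebf2 and Insig2 had ratios of 1.19, 1.00 and 1.00, and Scap one of 0.633 (0.358 to 1.07). Crosslinking and experiment cannot be told apart with 3 pools. The median of the hepatocyte markers was also highest in experiment 1 and lowest in experiment 2, although Apoa1 among them was slightly higher in experiment 2 than in experiment 3 (16.7 and 15.9). Their part in these differences was not tested.

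The PET ends of most of the genes were densest at the start. The promoter side is the 2.5 kb on either side of the 5′ boundary of the gene, and the body is the rest with 2.5 kb after the end; Sqle has no strand in the tables and is treated separately. Summed over the other 6 genes, the promoter side was denser than the body by 7.11-fold (5.65 to 8.97), 3.34-fold (2.62 to 4.24) and 3.26-fold (2.61 to 4.05) in experiments 1, 2 and 3. Protein-coding genes summed gave 3.47, 1.36 and 2.02. Without Insig1 the ratios were 5.80, 1.99 and 2.38. With the experiments added together, 5 of 6 genes had a promoter side at least 2-fold denser than the body (all but Insig2), against 35.1% of protein-coding genes; these intervals treat the ends of a PET as separate and are too narrow where both lie in the window.

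**Figure D2:**
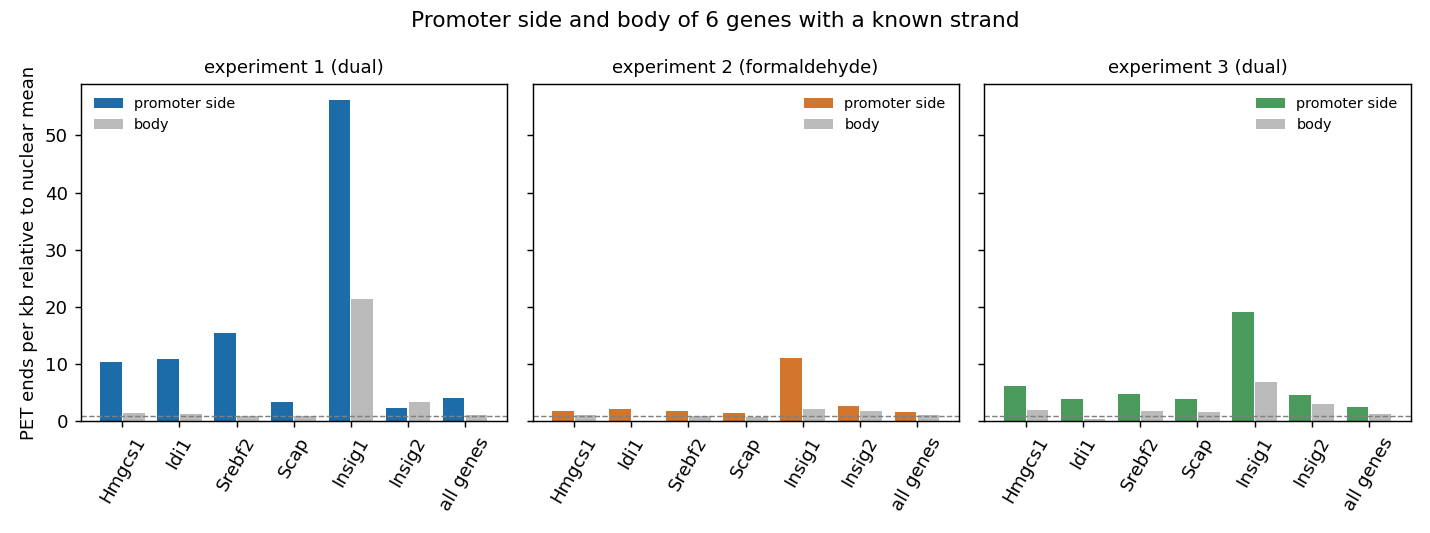
Relative density (PET ends per kb divided by the nuclear mean) on the promoter side (coloured bars) and in the body (grey bars) of 6 genes and of protein-coding genes summed (all genes), by experiment; the dashed line marks the nuclear mean. The promoter side of Insig1 reaches 56.2, 11.2 and 19.2, and Insig2 in experiment 1 is the only case in which the body bar is the taller one.

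Hmgcs1 had 18 of 27, 10 of 31 and 19 of 40 ends on its promoter side in experiments 1, 2 and 3. Most of these lay within 500 bp of the start, with 14, 6 and 15 ends and a local relative density of 40.1, 5.67 and 24.3. The ratio of promoter side to body was 7.16 (3.06 to 18.1), 1.71 (0.717 to 3.78) and 3.24 (1.65 to 6.33), and only the formaldehyde pool has an interval that includes 1.

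The body of Idi1 held 3, 1 and 2 ends, a relative density of 1.27, 0.139 and 0.478 in experiments 1, 2 and 3. Its promoter side held 19 of 22, 11 of 12 and 12 of 14 ends. The ratios were 8.60 (2.53 to 45.4), 14.9 (2.17 to 643) and 8.15 (1.81 to 74.9), with wide intervals on the promoter side against the body. Srebf2 held 27 of 46 ends on its promoter side in experiment 1, a ratio of 16.5 (8.85 to 31.4). In experiments 2 and 3 it held 10 of 70 and 15 of 81 there, with ratios of 1.94 (0.884 to 3.81) and 2.64 (1.40 to 4.68). Leaving Srebf2 out lowered the summed ratio of experiment 1 to 5.50. Scap had ratios of 3.44, 2.12 and 2.25 from 6, 8 and 12 ends on the promoter side. For Sqle, the 2.5 kb around the lower boundary held 32, 13 and 24 ends and those around the upper boundary 5, 8 and 2, so that the lower boundary was the denser in each experiment; within 500 bp of it there were 19, 5 and 15 ends.

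Insig2 differed from the others in that its ends gathered inside the annotated span. Its outermost annotated start (121332589) had 3, 2 and 4 ends within 500 bp, whereas an inner annotated start (121328024) had 18, 13 and 18, a local relative density of 51.6, 12.3 and 29.2. This is the start whose upstream bases are shown above. A further start at 121327678 lies within the same cluster of ends. With the promoter side taken around every annotated start, an alternative chosen after these ends were seen, the summed ratio over the 6 genes was 8.07, 4.18 and 3.68 in experiments 1, 2 and 3.

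**Figure D3:**
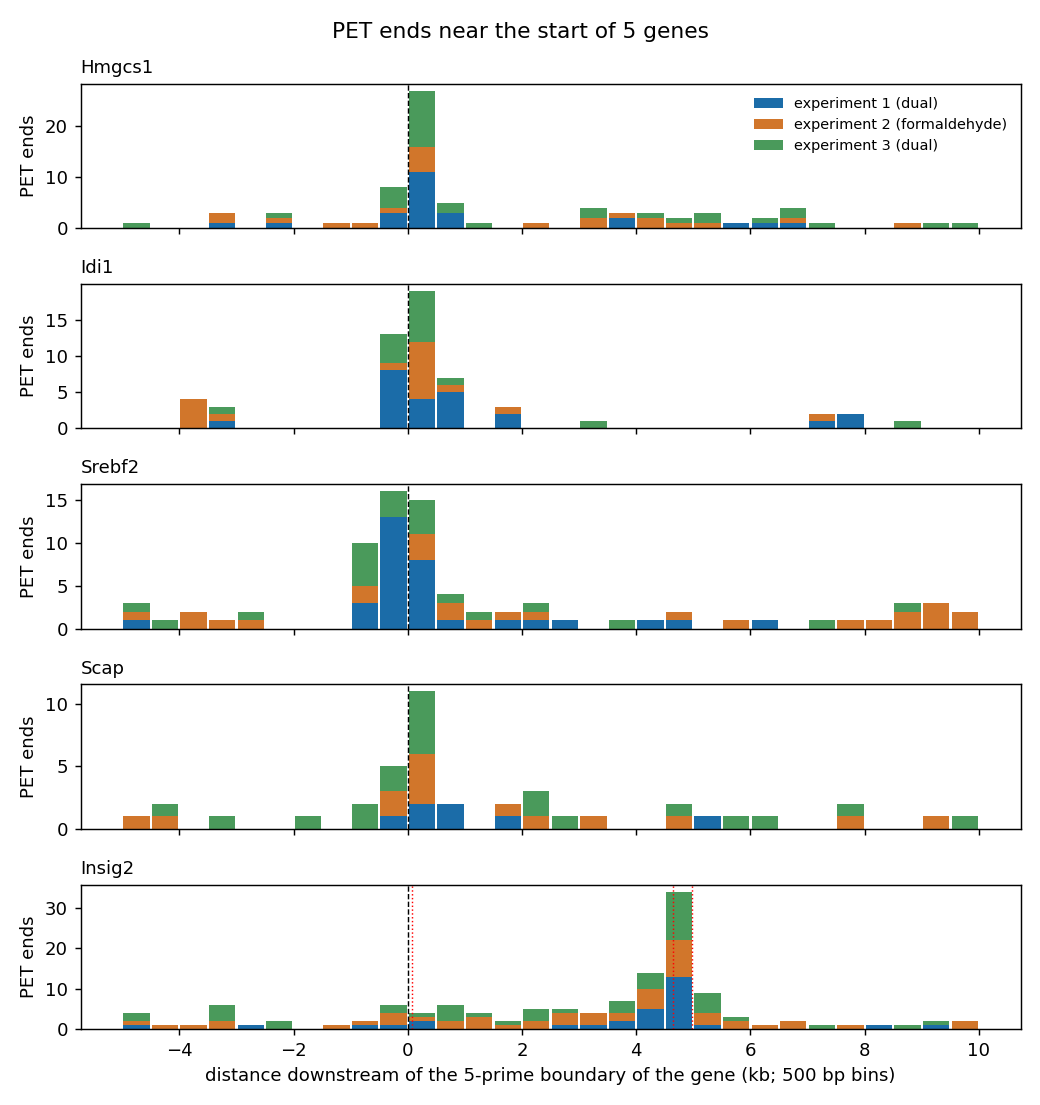
PET ends in 500 bp bins from 5 kb before to 10 kb after the 5′ boundary (dashed line) of 5 genes, with the experiments stacked in colour; dotted red lines mark the annotated starts of Insig2. The tallest bin lies next to the boundary in Hmgcs1, Idi1, Srebf2 and Scap, and between 4 and 5 kb downstream of it, at the inner starts, in Insig2.

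Insig1 was dense at its start, after its end and at an upstream place. Within 1 kb of the start there were 77, 51 and 47 ends, a relative density of 110.4, 24.1 and 38.2. The body beyond 1 kb had 13.8, 2.27 and 5.98. The 2.5 kb after the annotated end held 44, 8 and 16 ends, a relative density of 50.5 (34.5 to 71.3), 3.03 (1.11 to 6.59) and 10.4 (5.82 to 17.2). In all 3 pools the region after the end was thus denser than the body, although the intervals of experiments 2 and 3 overlap those of the body.

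The upstream place lies 17 to 14 kb before the start (chr5:28054412-28057412). It held 46, 17 and 18 ends in experiments 1, 2 and 3, a relative density of 44.0 (30.3 to 61.8), 5.36 (3.06 to 8.70) and 9.74 (5.68 to 15.6). The stretch between, 8 to 2.5 kb before the start, held 1, 8 and 5 ends, a relative density of 0.522, 1.38 and 1.48. These windows were not planned beforehand and follow where ends gathered in these same data, which the intervals do not allow for. A wider window, 17 to 8 kb before the start, had 15.6, 2.21 and 3.61. The gene table places the long non-coding RNA gene Gm26608 (chr5:28054947-28056032) in the upstream place, and a second one, Gm35223 (chr5:28005942-28123915, minus strand), spans the whole region, Insig1 included. These reads carry no strand of transcription, so ends over Insig1 and over Gm35223 cannot be told apart.

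In experiments 1 and 3, 1 PET each joined Insig1 to the upstream place, and none did in experiment 2. Of PETs whose ends lay 8 kb to 1 Mb apart, Insig1 had 4 and the other 6 genes had none. In experiment 1, 1 PET joined 28071031, just before the start, to 28055629, a distance of 15402 bp. In experiment 3, 1 PET joined 28070725 to 28055487, a distance of 15238 bp. The ends of these 2 PETs lay 306 bp apart near the start and 142 bp apart at Gm26608. A further PET of experiment 1 joined the region after the gene (28081009) to 28053250 over 27759 bp, and 1 of experiment 2 joined the start (28071366) to 28062838 over 8528 bp.

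**Figure D4:**
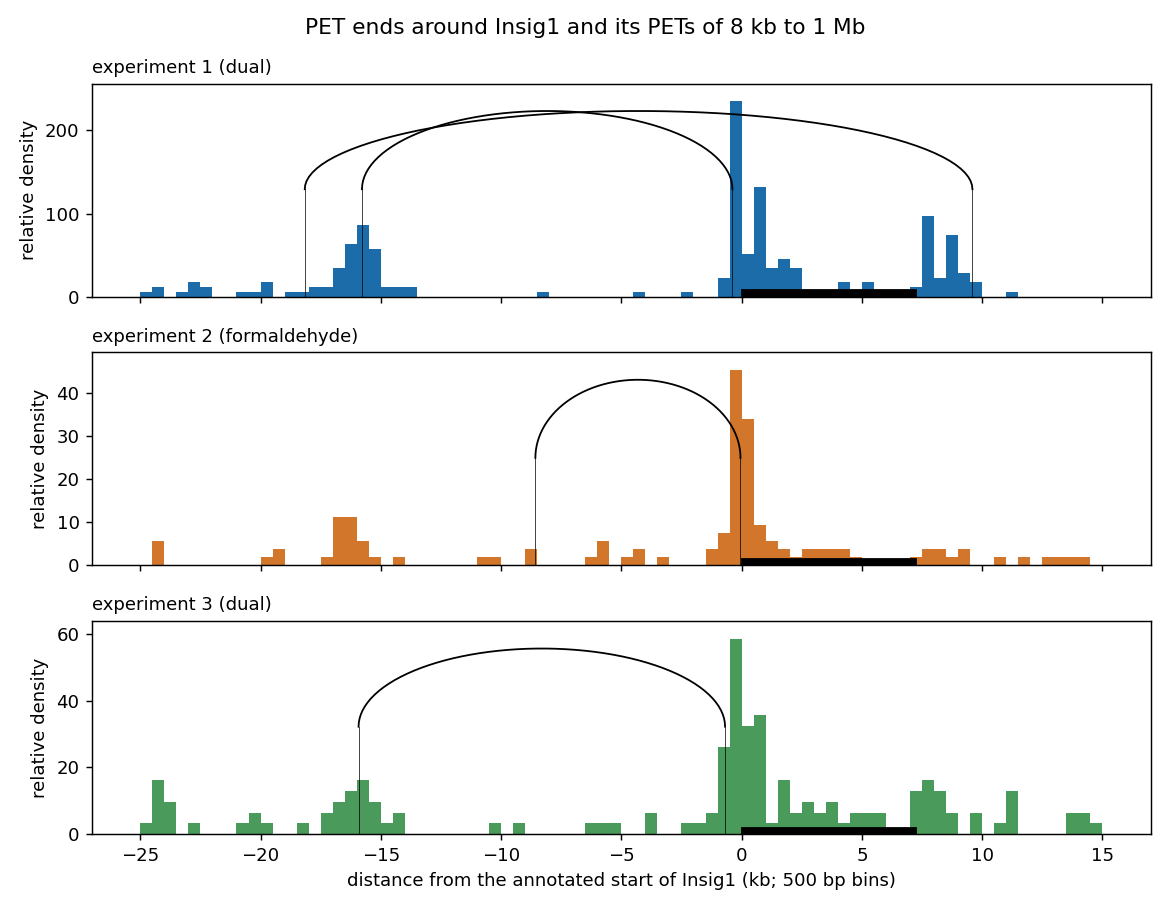
Relative density of PET ends in 500 bp bins from 25 kb before to 15 kb after the annotated start of Insig1, by experiment (each panel has its own vertical scale); arcs join the ends of the 4 PETs of 8 kb to 1 Mb and the black bar at the base is the gene. Peaks stand at the start and 17 to 14 kb upstream in each experiment, and 1 arc in experiment 1 and 1 in experiment 3 join them.

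A PET of 8 kb to 1 Mb was found for 24.5% of protein-coding genes in the experiments together, and for 0.42% (92 genes) in each of the 3 experiments, of which Insig1 was one. Insig1 met this with 1 PET each in experiments 2 and 3. That of experiment 2 spanned 8528 bp, just past the 8 kb limit, and its far end lay outside the upstream place. Genes with at least as many PET ends as Insig1 (318 in all) numbered 1932, and 2.9% of them had a PET of 8 kb to 1 Mb in each experiment. Their median length was 198900 bp, far above that of Insig1, and 125 of them had at least 4 such PETs. Gm26608 with 2.5 kb on either side had relative densities of 25.5, 2.80 and 5.61. Of PETs with an end in the upstream place, 1 of 33, 0 of 16 and 1 of 17 in experiments 1, 2 and 3 had the other end over Insig1.

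Longer links were few and scattered. PETs over 8 kb on 1 chromosome numbered 12, 18 and 15 for the 7 genes, 4.40%, 5.83% and 4.37% of their PETs, against 4.52%, 5.15% and 5.25% of PETs over protein-coding genes. Of these, 5 spanned 1 to 10 Mb and 36 over 10 Mb. From 1 to 10 Mb, Insig1 was joined to Selenoi (2.19 Mb, experiment 1) and to Hgfac (6.98 Mb, experiment 2), Srebf2 to Trappc9 (9.41 Mb, experiment 2), and Insig2 to places 7.94 and 8.15 Mb away (experiment 2), the farther of which lies at Thsd7b. No PET joined 2 of the 7 genes to each other. Most PETs of the set joined different chromosomes (174, 259 and 281), and the other end lay over a gene in 50.0%, 46.7% and 52.7% of these, against 51.7%, 47.8% and 53.1% for all such ends.

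Short PETs, with ends within 8 kb of each other, made up 31.9% (exact binomial 95% interval 26.4 to 37.8), 10.4% (7.19 to 14.3) and 13.7% (10.2 to 17.8) of the PETs of the 7 genes in experiments 1, 2 and 3. Over all protein-coding genes the shares were 20.4%, 5.12% and 11.9%. The 7 genes thus lay above that share in experiments 1 and 2, and in experiment 3 the interval includes it. Over all nuclear PETs the shares were 22.5%, 6.23% and 14.8%. The 7 genes lay above these in experiments 1 and 2 and below in experiment 3, where the interval includes the share. Neither background is fully like for like. A PET joining distant places can reach a small window by either end, whereas a short PET mostly lies there as a whole. This lowers the short share of small windows, so the lower value in experiment 3 does not show fewer short PETs. Insig1 alone had 33.0% (24.6 to 42.4), 15.2% (7.51 to 26.1) and 12.5% (6.16 to 21.8). Its short PETs had a median distance of 148, 424.5 and 388.5 bp and none was longer than 2193 bp.

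**Figure D5:**
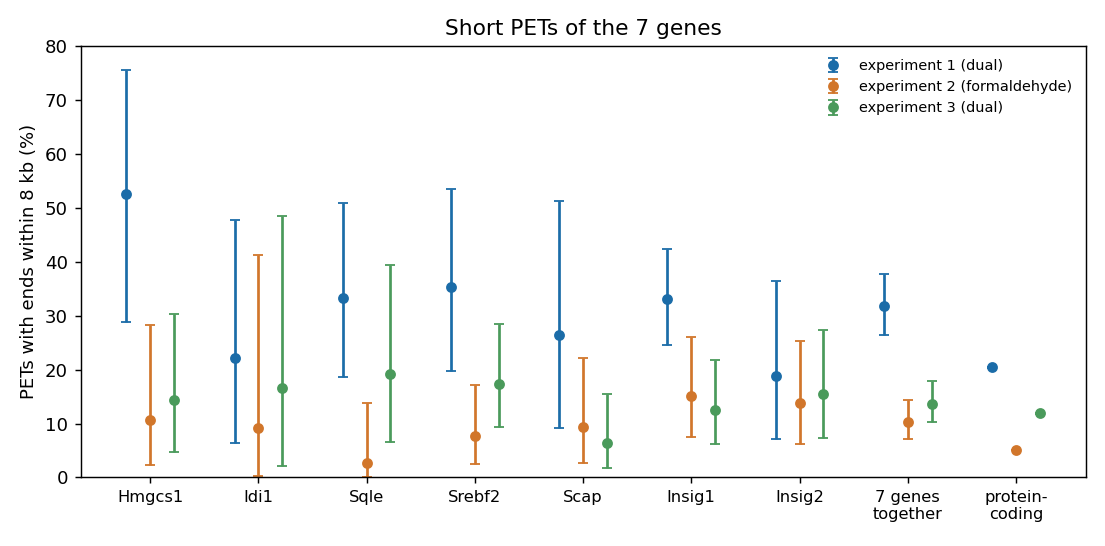
Share of PETs with both ends within 8 kb, in percent, for each of the 7 genes, for the 7 together and for PETs with an end over a protein-coding gene, by experiment, with exact binomial 95% intervals (counting error only). The 7 genes together reach 31.9% in experiment 1 and 10.4% and 13.7% in experiments 2 and 3, and single genes have wide intervals.

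Of 17 other enzymes of sterol synthesis, 4 had a relative density of at least 2 in all 3 experiments, against 5.32% of protein-coding genes, among them Sc5d (15.6, 2.51 and 6.33), Tm7sf2 (10.6, 3.02 and 4.53) and Fdps (11.8, 3.18 and 3.89). Sc5d and Tm7sf2 act late, on the sterol ring, and Fdps makes farnesyl pyrophosphate; Fdps was named after its values were seen. The median of the list was 3.50, 1.42 and 2.59, close to that of the 7 genes. The lowest were Nsdhl (1.34, 0.610 and 0.794), Cyp51 (1.68, 0.880 and 1.46) and Dhcr7 (1.99, 1.72 and 1.29). Insig1 was denser than the densest enzyme of this list in each experiment.

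Of 15 other genes of the SREBP pathway and of sterol handling, 1 reached 2 in all 3 experiments, against 5.32% of protein-coding genes. It was Rnf139 (3.48, 2.14 and 3.04, named after its values were seen), which encodes a ubiquitin ligase of the endoplasmic reticulum. The highest median was that of Srebf1, the gene of SREBP-1, with 10.2, 1.98 and 6.42, followed by Nfyb (8.56, 1.62 and 4.29), a subunit of NF-Y, and Nr1h3 (6.52, 1.55 and 3.21), the oxysterol receptor LXR alpha. Over whole windows, where a long body tends to lower the value, Srebf1 was thus denser than Srebf2 in each experiment. The lowest were Mbtps2 (0.821, 0.372 and 0.668), the Golgi protease that makes the last cleavage of SREBP, Sp1 (2.37, 1.13 and 1.57) and Soat2 (1.59, 1.31 and 1.89), which esterifies cholesterol. The list median was 2.79, 1.31 and 2.10.

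Among 11 genes of fatty acid synthesis, which SREBP-1 controls, 3 reached 2 in all 3 experiments, against 5.32% of protein-coding genes. They were Fasn (24.2, 4.46 and 11.7), Scd1 (21.5, 2.80 and 11.2) and Thrsp (35.5, 5.21 and 8.95). These levels lay above the other 6 genes of the set in each experiment and below the value of Insig1. Within the interval of Insig1 lay Thrsp in experiments 1 and 2, and Fasn and Scd1 in experiment 3. Below that interval lay Fasn and Scd1 in experiments 1 and 2, and Thrsp in experiment 3. The list median was 3.22, 1.35 and 2.14, and the lowest were Acaca (1.29, 1.08 and 1.51), Acacb (1.57, 0.873 and 2.14) and Me1 (1.70, 1.03 and 1.81).

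Some windows touch neighbours. The window of Hmgcs1 meets that of Nim1k, 1834 bp after its end, that of Sqle meets Washc5 (670 bp) and the pseudogene Zfp572 (3079 bp), that of Srebf2 meets Shisa8 (794 bp) and holds Mir33, and that of Scap meets Ptpn23 (135 bp). The relative densities of Nim1k, Washc5, Shisa8 and Ptpn23 lay between 1.05 (Shisa8, experiment 2) and 3.20 (Shisa8, experiment 3). Mir33, within Srebf2, had 0, 5 and 7 ends in its window.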

How the data were processed

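The PETs of all 8 libraries are in 1 table deposited by the authors, without a header line; its columns were read from their values as experiment, linkers, chromosomes and positions. Bowtie2 and the mm10 build are named in the submitters' processing notes; other steps are not stated in those notes or in the labels. The deposited rows were used as they stand, with ends on nuclear chromosomes only. PET ends were counted over the GRCm38 span of each gene and 2.5 kb on either side, and divided by the nuclear mean of the experiment (Python 3.11.15, pandas 2.3.3, numpy 2.4.6, scipy 1.17.1). Gene spans and promoters came from RefSeq, and 17492 protein-coding genes had a strand. Intervals are exact 95% Poisson or binomial intervals and cover counting error only. The counting was tested on simulated data. Named genes are the 7 genes, the 3 highest and 3 lowest of each list, genes whose windows overlap, genes at far ends and the 2 nearest in likeness; 1 gene that this rule names is not reported here. The genes and lists were chosen with earlier results of these data known. Alternatives were other windows, scalings, distances, linker subsets, collapsed near-duplicates and each experiment left out.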

Additional observations from a re-analysis of the deposited data

How the results depend on the processing

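The count of genes at or above 2 in all 3 experiments (1, Insig1) became 3 with the first linker alone, 2 relative to the surrounding 1 Mb and 3 at a fold of 1.5, and ranged from 1 to 5 when each experiment was left out in turn; it is 5 without experiment 2. Insig1 stayed at or above 2 in all 24 alternative values of its density, the lowest being 4.50. The genes at least 2-fold higher in experiment 3 than in experiment 2 (4) numbered 1 with the first linker alone, 2 over the gene span alone, 1 relative to the median protein-coding gene and 0 relative to the surrounding 1 Mb; the cause was not tested. Depth limits the sparsest genes, such as Idi1 with 12 ends in experiment 2. The promoter-side ratio within 1 kb of the start was 13.4, 6.28 and 6.37 in experiments 1, 2 and 3. In experiment 1 it was 10.8 for a body without the 2.5 kb after the end, 5.50 without Srebf2 and 9.24 without Insig2; without Insig1 it was 1.99 in experiment 2 and 2.38 in experiment 3. Of 108 alternative values of the main comparisons 92 kept within the interval or within 1.5 times the count, and 16 did not. Reversals were not scored, although relative to the surrounding 1 Mb the order of experiments changed for Srebf2 and Sqle. Collapsing near-duplicates removed 4 PETs of the 7 genes. No paired analysis was possible because the table names no library or time for a PET.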
